A study of Mus musculus with 15 samples.

Results

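Aquaporins are membrane channels that let water, and for some members glycerol or other small solutes, follow their gradients across a cell membrane. In the liver, hepatocytes secrete bile into canaliculi and cholangiocytes, the cells lining the bile ducts, then modify it, and both steps move water through aquaporins. Hepatocytes also take up glycerol released by fat tissue through an aquaglyceroporin and use it to make glucose and lipids.

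The 8 aquaporin genes described here, Aqp1, Aqp3, Aqp4, Aqp5, Aqp7, Aqp8, Aqp9 and Aqp11, were chosen by name. Earlier results of these data were known when they and the gene lists below were chosen. Their counts beside the shares of all probes are therefore only descriptions. They were read by 12 of the 55681 non-control probes of the array, and 22594 genes of the array carried a RefSeq symbol. Aqp4, Aqp5, Aqp8 and Aqp11 had 2 probes each and the others had 1. By their known sites in liver, Aqp8, Aqp9 and Aqp11 were taken as hepatocyte members and Aqp1, Aqp4 and Aqp5 as bile duct members, while Aqp3 and Aqp7 are best known from other organs.

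RNA of 15 whole liver tumors was hybridised, 5 in each of 3 groups, with 1 array per tumor. All mice received carbon tetrachloride (CCl4, a liver toxin) over 16 weeks, starting at 6 weeks of age according to the methods. The p53f/f HCC group held hepatocellular carcinoma (HCC) of control mice with a floxed, undeleted Trp53 gene. The p53LKO HCC group held HCC of mice with a liver-specific Trp53 deletion, and the p53LKO ICC group held intrahepatic cholangiocarcinoma (ICC) of mice with the same deletion. Mouse 3717 contributed 2 of the 5 p53f/f HCC, which thus stem from 4 mice. The other 2 groups had 5 mice each, 4 of which gave both an HCC and an ICC. All mice were on a C57/BL6J background according to the methods, and the study describes the HCC transcriptomes as those of male mice. The sex of the mice with ICC was not given in the sources used here. The study followed p53f/f mice to an older age than it did p53LKO mice. The Cre line and the age behind each hybridised tumor were not given in the sources used here, so age and genotype cannot be told apart.

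Levels are log2 processed signals minus the 75th percentile of the array, so 0 is the level of a probe at that percentile, and a negative level means only that a probe lay below it. Values of the 5 tumors of a group are listed in a fixed order of mice, 3681, 3715, 3716 and 3717 (both tumors) for p53f/f HCC, 3976, 5283, 3731, 3733 and 3975 for p53LKO HCC, and 3731, 3733, 3976, 3977 and 5283 for ICC. A probe was called different at an adjusted p under 0.05 and a difference of over 2-fold. The share of probes well above background was 55.1% to 70.1% on p53f/f HCC arrays, 37.0% to 62.1% on p53LKO HCC arrays and 42.5% to 47.0% on ICC arrays. Within p53LKO HCC it went with the row of the slide. The 2 arrays in the lower row, where all ICC lay, were at 37.0% and 46.4%, and the 3 in the upper row at 61.0% to 62.1%. Those 2 arrays lay on slide 1 and those 3 on slide 2, so row and slide cannot be told apart within this group. The Trp53 probe was at -1.27 to -0.68 in p53f/f HCC, -3.86 to -2.75 in p53LKO HCC and -4.19 to -2.31 in p53LKO ICC, so both p53LKO groups lay below the control group. All 8 hepatocyte markers were well above background in every tumor, the ICC included. The mean level of the 8 bile duct markers was -0.15 to 0.15 in ICC and -3.28 to -0.62 in HCC, without overlap. Of the 8 markers, 5 to 6 were well above background in each ICC, 4 to 8 in each p53f/f HCC and 3 to 6 in each p53LKO HCC, so these means rest in part on background signal. Epcam, an epithelial marker of bile ducts, was well above background in 5 of 5 ICC and 0 of 5 p53LKO HCC and was at least 94.0-fold higher in ICC.

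The sequences of 4 probes are shown so that it can be seen what was read. For Aqp9 and Aqp5 the probe shown gave the levels listed first, while for Aqp8 and Aqp11 it is the second, dimmer probe. Each lies in the 5′-most position among the probes of its gene, is given 5′ to 3′ in the sense of the transcript as the array files hold it, and has positions on mm9. No annotation of that build was used, so exon and UTR placement is not given. The Aqp8 probe lies at chr7:130606210-130606269 on the plus strand, the Aqp11 probe at chr7:104877482-104877541 on the minus strand, the Aqp9 probe at chr9:70978252-70978311 on the minus strand and the Aqp5 probe at chr15:99424655-99424714 on the plus strand.
Aqp8: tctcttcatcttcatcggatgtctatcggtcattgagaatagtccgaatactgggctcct
Aqp11: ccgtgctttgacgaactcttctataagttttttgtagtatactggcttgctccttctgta
Aqp9: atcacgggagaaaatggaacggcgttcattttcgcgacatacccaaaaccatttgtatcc
Aqp5: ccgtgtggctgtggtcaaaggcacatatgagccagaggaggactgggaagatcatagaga

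The hepatocyte member Aqp8, a channel for water and ammonia in the canalicular and inner mitochondrial membrane, was lower in ICC than in either HCC group. By its brighter probe the levels were 7.22, 5.86, 6.77, 5.79 and 6.11 in p53f/f HCC, 5.32, 6.10, 6.32, 6.69 and 6.04 in the p53LKO HCC, and 4.34, 0.53, 3.27, 3.87 and 3.26 in p53LKO ICC. Every ICC lay below every HCC, and the ICC of mouse 3733 lay far below the other ICC. The HCC of the same mouse was at 6.69, the highest of its group.

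Aqp8 fell by 3.04 on the log2 scale (SE 0.61) from p53LKO HCC to ICC, which is 8.22-fold (limma, adjusted p = 0.00278). Against p53f/f HCC it fell by 3.29 (SE 0.63, 9.80-fold, limma adjusted p = 0.00318). The exact two-sided permutation p was 0.00794 in both comparisons, the smallest that the 252 ways of choosing 5 of 10 arrays allow. It counts arrays as independent, although mouse 3717 gave 2 p53f/f HCC and 4 mice gave both an HCC and an ICC. Without the ICC of mouse 3733, the differences of -2.41 and -2.66 were both called, and scaling to spike-in probes gave a called -2.55 against p53f/f HCC. The second Aqp8 probe, shown above, had differences of -3.19 and -3.53, and the probes correlated at r = 0.99 over the 15 arrays. The 2 HCC groups overlapped, with means of 6.35 ± 0.62 and 6.10 ± 0.50 (SD, n = 5 tumors each), and the difference of -0.25 (SE 0.33) was not called (limma, adjusted p = 0.582).

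Aqp11, an unorthodox aquaporin of the endoplasmic reticulum, had levels of 2.62, 3.26, 2.86, 2.46 and 2.22 in p53f/f HCC, 3.04, 2.61, 2.84, 2.96 and 2.81 in the p53LKO HCC, and 0.84, -2.48, -0.27, 0.74 and -0.47 in ICC. The ICC did not overlap either HCC group, and mouse 3733 again gave the lowest ICC. Aqp11 fell by 3.18 (SE 0.53, 9.07-fold, limma adjusted p = 0.000984) from p53LKO HCC to ICC and fell by 3.01 (SE 0.55, 8.08-fold, limma adjusted p = 0.00252) relative to p53f/f HCC. Without mouse 3733 the differences were -2.64 and -2.48, and both were called. Against p53f/f HCC, scaling to spike-in probes gave -2.27 and the slide as a block -2.40, both called. The second probe had differences of -2.53 and -2.77, with r = 0.99 between the probes. The p53LKO HCC spread was small (2.85 ± 0.16, SD, n = 5), and the difference of 0.17 (SE 0.21) from p53f/f HCC was not called (limma, adjusted p = 0.562). With scaling to spike-in probes this difference was 0.90 (limma, adjusted p = 0.0111), under 2-fold. By the second probe it was -0.24 (limma, adjusted p = 0.382).

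Aqp9, the aquaglyceroporin through which hepatocytes take up glycerol, had levels of -0.96, -1.13, -2.50, -1.48 and -0.85 in p53f/f HCC, -1.13, -1.24, -1.81, -1.45 and -2.42 in the p53LKO HCC, and -2.07, -5.07, -2.43, -1.01 and -2.92 in ICC. The groups overlapped, since the ICC of mouse 3977 (-1.01) lay above every p53LKO HCC. The ICC of mice 3733 and 5283 were not well above background. The difference of ICC from p53LKO HCC was -1.09 (SE 0.62, limma adjusted p = 0.172) and that from p53f/f HCC was -1.32 (SE 0.64, limma adjusted p = 0.134). Neither was called. Without the ICC of mouse 3977, the latter difference became -1.74 and was called (limma, adjusted p = 0.0446). Without the ICC of mouse 3733 the differences shrank to -0.50 and -0.72, and with normexp background correction to -0.25 and -0.40.

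**Figure D1:**
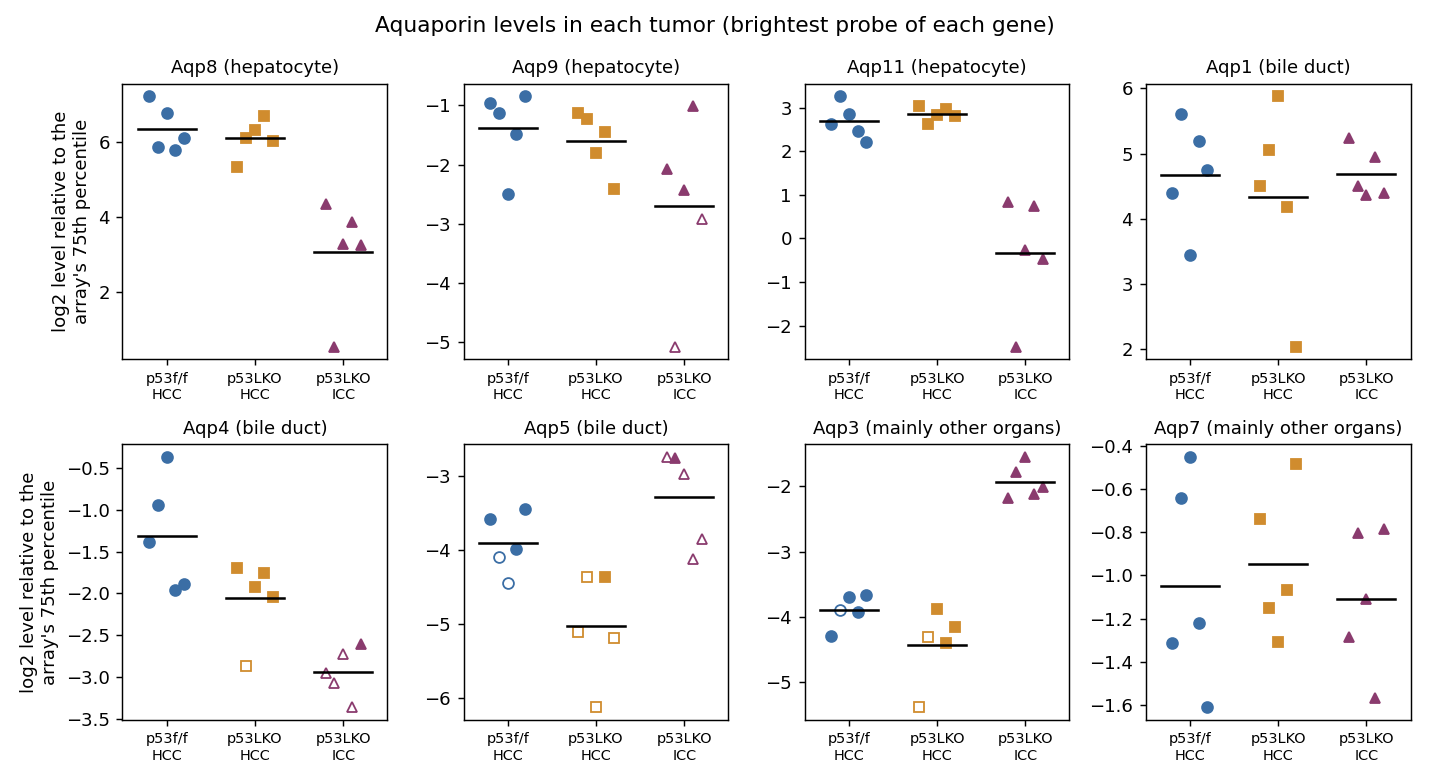
Level of each member (brightest probe) in each tumor, as log2 signal relative to the 75th percentile of the array, by group, with its known site in liver in the title of each panel. Points are tumors, open where the probe was not well above background, and lines are group means of 5 tumors, and Aqp8 and Aqp11 in ICC lie below all HCC while Aqp3 lies above them.

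The levels of the hepatocyte members moved with the markers of hepatocytes among the ICC. The mean level of 8 hepatocyte markers (such as Alb and Apob) ranged from 7.001 to 8.06 among the p53f/f tumors and from 6.72 to 7.06 among the p53LKO HCC. In ICC it was 6.37, 4.06, 5.65, 6.64 and 5.47 for mice 3731, 3733, 3976, 3977 and 5283. Mouse 3733 was thus lowest in the marker list and in all 3 hepatocyte members. Over the 15 arrays the list mean correlated with Aqp8 at r = 0.93, with Aqp9 at r = 0.90 and with Aqp11 at r = 0.89. These are descriptions over tumors that share group, slide and scaling. Of the 8 markers, 5 were called lower in ICC than in p53LKO HCC and 6 lower than in p53f/f HCC, beside 13.4% and 12.0% of all probes. Their median differences were -1.70 and -2.13, beside -0.19 and -0.16 over all genes. Cyp2e1, a cytochrome P450 enzyme, was the marker with differences above 0, at 1.94 and 1.67, which were not called (limma, adjusted p = 0.101 and 0.361). Fewer hepatocytes in a tumor and less RNA per cell cannot be told apart in whole tissue, and the part of hepatocyte content in the falls was not tested.

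**Figure D2:**
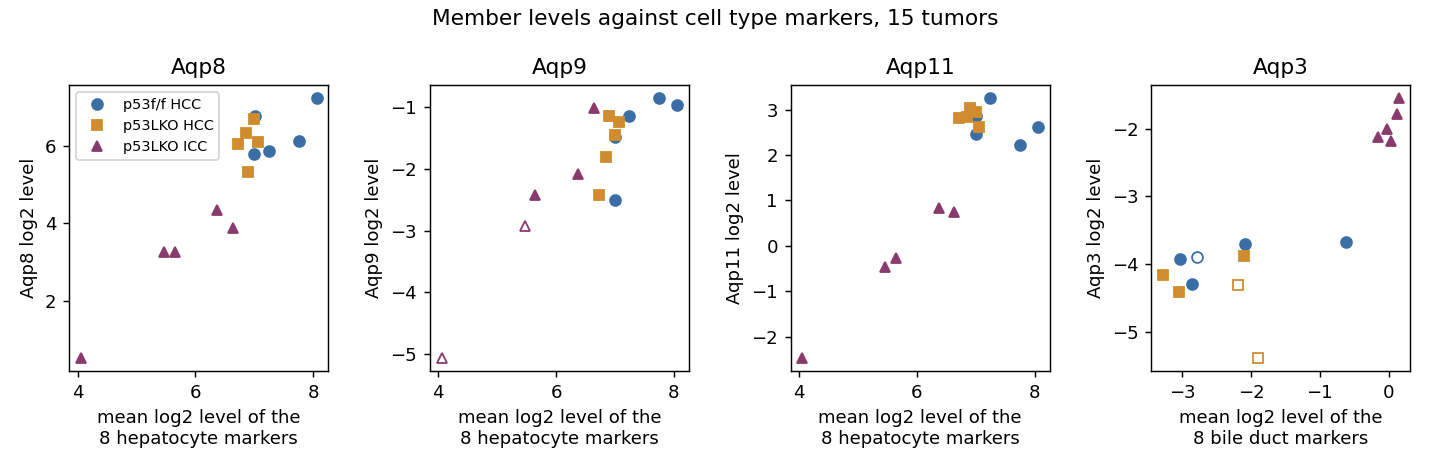
Level of Aqp8, Aqp9 and Aqp11 against the mean level of 8 hepatocyte markers, and of Aqp3 against 8 bile duct markers, in 15 tumors (both axes in log2 relative to the 75th percentile of the array, open points not well above background). The ICC of mouse 3733, at a marker mean of 4.06, is the lowest point in the first 3 panels, and the 5 ICC form the upper right group in the Aqp3 panel.

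The genes whose levels followed Aqp8 most closely were Mttp (r = 0.98), which loads lipid onto lipoproteins, Etnk2 (r = 0.98), an ethanolamine kinase, and Pla2g12b (r = 0.98), a phospholipase-like protein, among 17017 genes over 15 arrays. After group means were removed, r was 0.95, 0.93 and 0.92. The gene at rank 100 still had r = 0.93, so many genes shared this pattern. For Aqp1 the closest were Fyn (r = 0.85), a tyrosine kinase, Lhx5 (r = 0.85), a transcription factor, and Fam89a (r = 0.82), and rank 100 was at r = 0.59. Lhx5 was well above background on 5 of 15 arrays, so its r rests largely on background signal, while the other 5 genes named here were so on all 15.

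Aqp1, the water channel of cholangiocytes and also of endothelium and red blood cells, was well above background in all 15 tumors. Its levels were 4.39, 5.61, 3.44, 5.19 and 4.75 in p53f/f HCC, 4.51, 5.06, 5.88, 4.17 and 2.04 in the p53LKO HCC, and 5.24, 4.50, 4.36, 4.95 and 4.39 in ICC. The groups overlapped throughout, and the p53LKO HCC of mouse 3975 was the lowest of all. ICC differed from p53LKO HCC by 0.35 (SE 0.58, limma adjusted p = 0.643) and from p53f/f HCC by 0.01 (SE 0.37, limma adjusted p = 0.985). The difference between the HCC groups was -0.34 (SE 0.64, limma adjusted p = 0.711). Without mouse 3975 it became 0.23, and that of ICC from p53LKO HCC became -0.22. Of the 7 endothelial markers, 1 was called higher and 0 lower in ICC than in p53LKO HCC, while the 4 tested red blood cell markers were all called lower, beside 12.9% and 13.4% of all probes. The red blood cell marker Slc4a1 was well above background in 0 of 5 ICC and passed the filter through p53LKO HCC alone. Their part in the Aqp1 level was not tested.

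The 2 probes of Aqp4, a water channel of the basolateral membrane of cholangiocytes and of astrocytes, differed in what they showed, and their starts lie 3413 bases apart. By the brighter probe the levels were -1.38, -0.95, -0.37, -1.96 and -1.89 in p53f/f HCC, -1.69, -2.87, -1.92, -1.76 and -2.04 in the p53LKO HCC, and -2.96, -3.07, -2.73, -3.36 and -2.60 in ICC, where only mouse 5283 was well above background. All ICC lay below all p53f/f HCC. In the comparisons with ICC the probe passed the filter through the HCC group alone, with ICC at background on 4 of 5 arrays, so no size is given and nothing rests on the call. It was called lower than in p53f/f HCC (limma, adjusted p = 0.00297), a call lost with normexp and with scaling to spike-in probes. It was not called against p53LKO HCC, except without the p53LKO HCC of mouse 5283, with quantile normalization and with no fold limit.

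By the second Aqp4 probe the levels were -1.62, -1.14, -0.53, -1.88 and -1.83 in p53f/f HCC, -3.39, -3.18, -2.49, -2.45 and -3.07 in the p53LKO HCC, and -1.99, -1.95, -3.09, -2.29 and -3.49 in ICC. Here both p53LKO groups lay below all p53f/f HCC, and 3 arrays of each were well above background, the 2 p53LKO HCC below it being those in the lower row. The difference between the HCC groups was -1.52 (SE 0.30, 2.86-fold, limma adjusted p = 0.00322), against an uncalled -0.75 (SE 0.34, limma adjusted p = 0.109) by the brighter probe. It was -0.88 with normexp and -0.78 with spike-in scaling, both under 2-fold. ICC differed from p53LKO HCC by 0.36 (SE 0.33, limma adjusted p = 0.406) and from p53f/f HCC by -1.16 (SE 0.36, limma adjusted p = 0.0310). The last of these calls was lost under 8 of 20 alternatives, among them those without mouse 3715 or 3716 of the p53f/f HCC or without mouse 3976 or 5283 of the ICC, with differences of -1.10, -0.94, -1.03 and -0.93. The probes correlated at r = 0.57, so between the p53LKO groups the direction of Aqp4 was not settled.

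Aqp5, the water channel of secretory glands, also read differently by its 2 probes, whose starts lie 483 bases apart (r = 0.71). By the probe shown above the levels were -3.59, -4.10, -4.45, -3.99 and -3.45 in p53f/f HCC, -5.11, -4.37, -6.13, -4.37 and -5.19 in the p53LKO HCC, and -2.74, -2.75, -2.97, -4.12 and -3.85 in ICC. Only 3, 1 and 1 of the 5 arrays of these groups were well above background. It was called lower in p53LKO HCC than in p53f/f HCC (limma, adjusted p = 0.0272), and the groups overlapped. The probe passed the filter through p53f/f HCC alone, with p53LKO HCC at background on 4 of 5 arrays, so no size is given and nothing rests on the call. The call was lost under 12 of 23 alternatives. It was lost when any of 3 p53f/f HCC (mouse 3681 or either tumor of mouse 3717) or any of 3 p53LKO HCC (mouse 3976, 3731 or 3975) was left out. Between ICC and p53f/f HCC, where it also passed through p53f/f HCC alone, it was not called (limma, adjusted p = 0.151), except with scaling to spike-in probes and with the mean over the probes. Against p53LKO HCC the probe was not tested, since only 1 array of each group was well above background.

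The second Aqp5 probe was not well above background in any HCC. In ICC its levels were -1.36, -0.75, -0.55, -4.79 and -3.51, and only those of mice 3731, 3733 and 3976 were well above background, so the probe was tested through ICC alone. The ICC of mouse 3977 lay below the p53LKO HCC of mice 3976 and 5283 (-3.97 and -4.27), so these groups overlapped. The probe was called higher in ICC than in p53LKO HCC (limma, adjusted p = 0.0106) and than in p53f/f HCC (limma, adjusted p = 0.00463), but with every HCC array at background no size is given and nothing rests on the calls. With the row of the slide as a block the first call was lost (limma, adjusted p = 0.175).

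**Figure D3:**
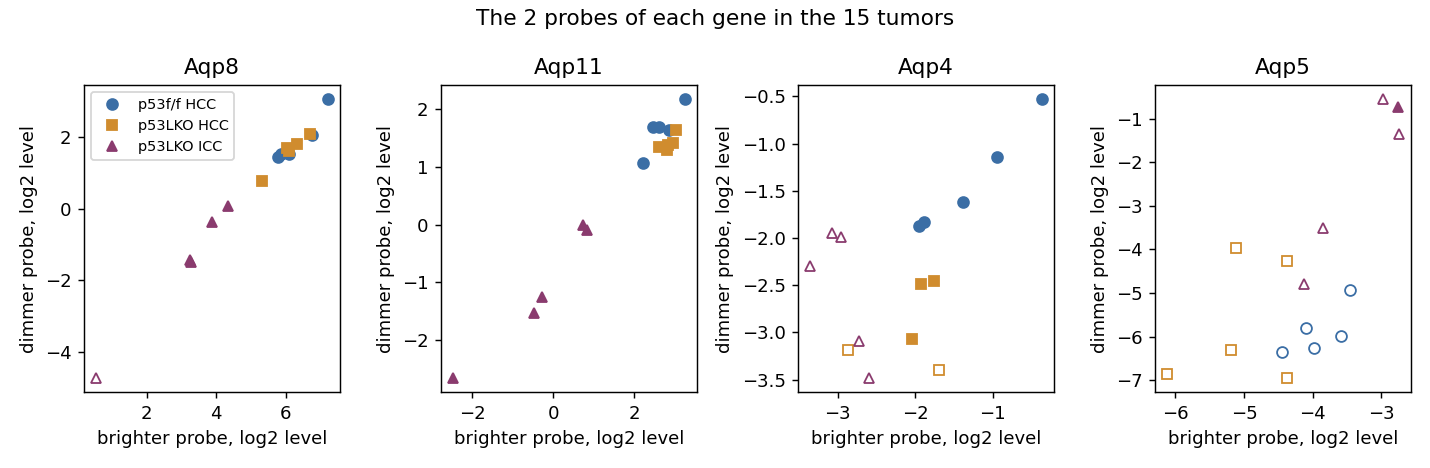
The 2 probes of Aqp8, Aqp11, Aqp4 and Aqp5 against each other in 15 tumors, both axes in log2 relative to the 75th percentile of the array, open where either probe was not well above background. The probes of Aqp8 and Aqp11 fall on a line (r = 0.99 each), while those of Aqp4 (r = 0.57) and Aqp5 (r = 0.71) scatter.

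Aqp3, an aquaglyceroporin of skin, gut and kidney collecting duct, was higher in ICC than in either HCC group. Its levels were -4.30, -3.89, -3.70, -3.92 and -3.67 in p53f/f HCC, -5.38, -4.31, -3.88, -4.41 and -4.16 in the p53LKO HCC, and -2.18, -1.79, -1.55, -2.12 and -2.01 in ICC. Every ICC lay above every HCC, and the 5 ICC lay close together. Aqp3 was well above background in 4 p53f/f HCC, 3 p53LKO HCC and 5 ICC, and the 2 p53LKO HCC below it were those in the lower row of the slide. It was higher in ICC than in p53LKO HCC by 2.50 (SE 0.27, 5.66-fold, limma adjusted p = 0.000102) and higher than in p53f/f HCC by 1.97 (SE 0.19, 3.91-fold, limma adjusted p = 6.89e-05). With normexp background correction the differences were 1.17, still called, and 0.94, under 2-fold. Scaling to spike-in probes gave 2.72 against p53f/f HCC. The HCC groups differed by -0.53 (SE 0.27, limma adjusted p = 0.149), which was not called. Over the 15 arrays Aqp3 correlated at r = 0.84 with the mean of the bile duct markers, which was in part background signal. The bile duct members Aqp1, Aqp4 and Aqp5 correlated with that mean at r = 0.21, -0.66 and 0.60. With the mean of the hepatocyte markers they correlated at r = 0.07, 0.57 and -0.38, so Aqp4 went with hepatocyte rather than duct markers. The hepatocyte members Aqp8, Aqp9 and Aqp11 correlated with the bile duct mean at r = -0.79, -0.43 and -0.83. Of 7 tested bile duct markers, 4 were called higher and 0 lower in ICC than in p53LKO HCC, beside 12.9% and 13.4% of all probes. Krt7 and Epcam among these 4 passed the filter through ICC alone. The part of duct cell content in the rise of Aqp3 was not tested.

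The 250 bases before the start of Aqp8, Aqp11 and Aqp3 are shown because these members were called in both comparisons with ICC. They come from RefSeq on GRCm38.p6, which holds a promoter for 7 of the 8 members, and are written 5′ to 3′ in the direction of the gene. Both strands were searched for TATAAA (an element of the core promoter), GTTAAT (a half-site of HNF1, a hepatocyte and duct factor), CAAAGNNCA (HNF4-type) and GGAATG (TEAD), with matches in capitals. These stood in 12.4%, 6.43%, 5.49% and 12.6% of 32851 promoters of this length. The Aqp8 stretch is chr7:123462044-123462293 on the plus strand and holds GGAATG. The Aqp11 stretch is chr7:97738248-97738497 on the minus strand and holds CAAAGNNCA. The Aqp3 stretch is chr4:41098184-41098433 on the minus strand and holds TATAAA at -29. Of the members not shown, Aqp1 also held CAAAGNNCA, at -205 on the opposite strand, while Aqp5, Aqp7 and Aqp9 held no match. A match is only a match of letters.
Aqp8: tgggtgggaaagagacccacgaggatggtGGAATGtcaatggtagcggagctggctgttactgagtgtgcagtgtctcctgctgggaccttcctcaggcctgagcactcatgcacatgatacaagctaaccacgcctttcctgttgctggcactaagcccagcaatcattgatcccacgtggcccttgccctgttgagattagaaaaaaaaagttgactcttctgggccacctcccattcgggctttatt
Aqp11: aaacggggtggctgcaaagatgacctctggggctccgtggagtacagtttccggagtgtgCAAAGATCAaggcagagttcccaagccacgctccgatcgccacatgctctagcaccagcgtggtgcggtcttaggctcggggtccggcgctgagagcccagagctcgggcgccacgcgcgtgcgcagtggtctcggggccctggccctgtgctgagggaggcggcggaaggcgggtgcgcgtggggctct
Aqp3: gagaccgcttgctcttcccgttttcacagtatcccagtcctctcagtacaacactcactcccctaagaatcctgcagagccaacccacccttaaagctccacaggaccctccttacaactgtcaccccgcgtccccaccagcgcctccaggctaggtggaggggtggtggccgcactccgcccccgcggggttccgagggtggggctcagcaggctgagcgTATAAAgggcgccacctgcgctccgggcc

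Aqp7, the glycerol exit channel of adipocytes, lies beside Aqp3 on chromosome 4, with 59531 bases between the starts of their probes on mm9. It was well above background in all tumors and its levels stayed between -1.61 and -0.45. The groups overlapped, with means of -1.05 ± 0.48, -0.95 ± 0.33 and -1.11 ± 0.33 (SD, n = 5 each) in p53f/f HCC, p53LKO HCC and ICC. The 3 differences lay between -0.16 and 0.10, and none was called (limma, adjusted p of 0.570 to 0.865). Scaling to spike-in probes gave 0.83 between the HCC groups, under 2-fold. No adipocyte marker was called in any comparison, with 2 or 3 of the 5 tested.

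Between the 2 HCC groups, 1 of the 8 members was called by its brightest probe, Aqp5, against a background of 19.6% of the 36086 probes tested. Aqp5, which passed the filter through p53f/f HCC alone, was lower, as were 16.0% of the probes, and 0 members were higher, as were 3.64%. Of the 7 members well above background on 3 or more arrays of both groups, 0 were called, against 14.4% of such probes, and 0 were without overlap between the groups, against 20.9%. At an unadjusted limma p under 0.05, 1 of these 7 would pass, Aqp4 (unadjusted p = 0.0474). The median difference of the 7 was -0.25, against 0.14 over 15447 genes so measured.

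In ICC against p53LKO HCC, 3 of 7 tested members were called, against a background of 26.4% of the 32666 probes tested. Aqp3 was higher, as were 12.9% of the probes, and Aqp8 and Aqp11 were lower, as were 13.4%. All 3 were among the 6 members well above background on 3 or more arrays of both groups, where 26.4% of probes were called. These 3 did not overlap between groups, which held for 32.2% of such probes and 28.6% of all tested. The median was -0.63 for the 6 members and -0.17 for 13333 genes so measured. By brightest probe 2 of 3 hepatocyte members were called lower. Of the bile duct members only Aqp1 was among the 6, and it was not called. In ICC against p53f/f HCC, 4 of 8 members were called, against a background of 19.4% of the 35702 probes tested. Aqp3 was higher, as were 7.43% of the probes, and Aqp4, Aqp8 and Aqp11 were lower, as were 12.0%. Of the 6 members well above background on 3 or more arrays of both groups, 3 were called, without Aqp4, against 18.1% of such probes. These 3 did not overlap between groups, which held for 26.2% of such probes and 24.3% of all tested. The median was -0.69 for the 6 members and -0.05 for 13446 genes so measured. By brightest probe 2 of 3 hepatocyte members were called lower. Of the bile duct members only Aqp1 was again among the 6, and it was not called. The 3 comparisons share groups of tumors, so their values are not independent.

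**Figure D4:**
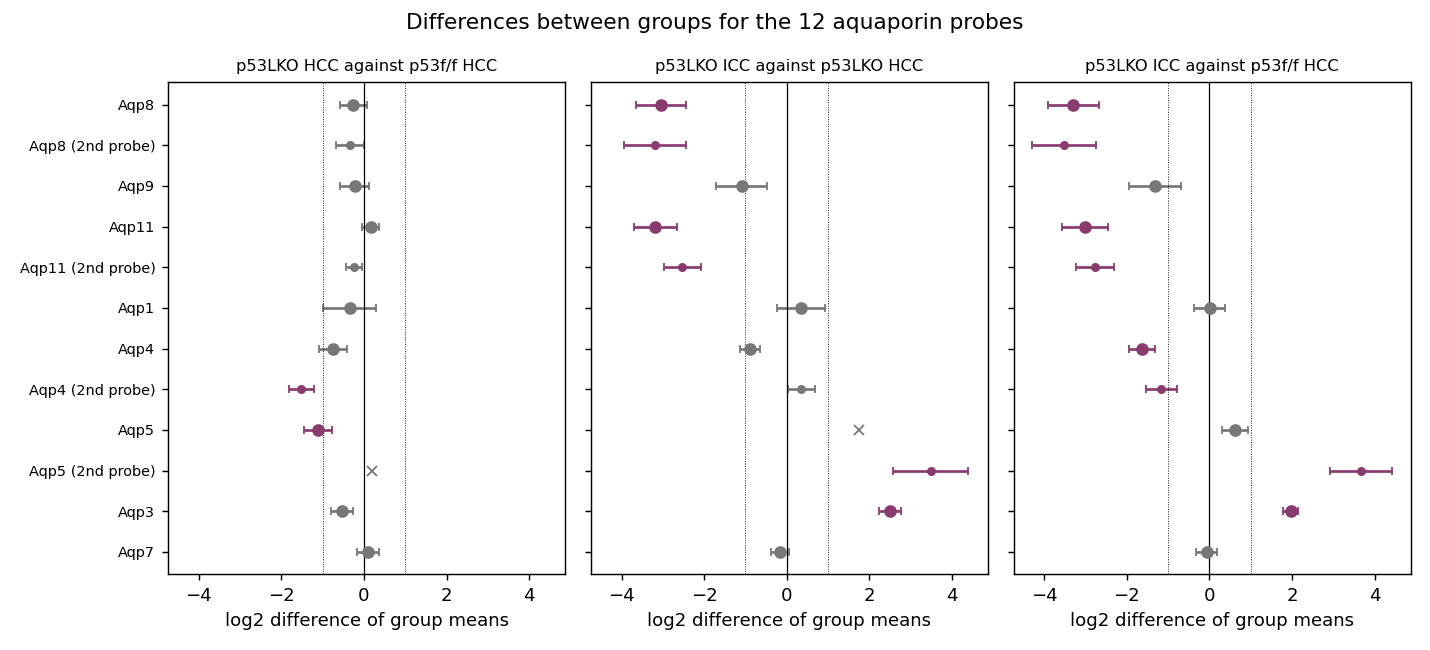
Log2 difference of group means for the 12 probes of the members in the 3 comparisons, with bars of 1 SE from limma, coloured where called, grey otherwise, and crosses without bars where a probe was too dim to be tested. Dotted lines mark 2-fold, and both probes of Aqp8 and Aqp11 lie at -2.53 or below in the 2 comparisons with ICC. Some bars of Aqp4 and Aqp5 set a group against one at background on 4 or 5 of its 5 arrays.

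All p53f/f HCC lay in the upper row of their slide and all ICC in the lower row, so for ICC against p53f/f HCC row and group cannot be told apart. The p53LKO HCC lay in both rows. Within the lower row, 5 ICC differed from 2 p53LKO HCC by -2.66 for Aqp8, -3.16 for Aqp11 and 2.92 for Aqp3. These 2 HCC, of mice 3976 and 5283, lay on slide 1, while 4 of the 5 ICC lay on slide 2. Neither HCC was well above background for Aqp3, so 2.92 sets ICC against background signal. With the row as a block, the differences of Aqp8, Aqp11 and Aqp3 were called (limma, adjusted p = 0.0402, 0.0133 and 0.000646). The Aqp3 call thus rests on the same 2 HCC at background. The second probe of Aqp8 was not called (limma, adjusted p = 0.0694). That probe was also not called against p53f/f HCC with the slide as a block (limma, adjusted p = 0.0812). Within the upper row, 3 p53LKO HCC differed from 5 p53f/f HCC by -1.27 for the second probe of Aqp4. Within slide 1 the ICC differed from p53LKO HCC by -1.37 for Aqp8, -1.99 for Aqp11 and 2.67 for Aqp3, on 1 ICC and 2 HCC. All of these lay in the lower row, and the HCC are again those of mice 3976 and 5283, at background for Aqp3. Within slide 2 the differences were -3.62, -3.49 and 2.28, on 4 ICC in the lower row and 3 HCC in the upper row. Row and tumor type cannot be told apart there.

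Of the other members of the family, the probes of Mip and Aqp12 were not well above background on any array, and 1 of 2 Aqp6 probes was so on 1 p53f/f HCC and 1 p53LKO HCC array. The Aqp2 probe, which has no position in the array files, was well above background in all tumors and at -0.30 ± 0.16, -0.39 ± 0.11 and -1.03 ± 0.14 (SD, n = 5 each) in p53f/f HCC, p53LKO HCC and ICC. Every ICC lay below every HCC. ICC differed from p53LKO HCC by -0.64 and from p53f/f HCC by -0.73 (limma, adjusted p = 0.00438 and 0.00477), under 2-fold, and so the differences were not called.

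Of the 12 genes tested that handle glycerol, 7 were called lower and 0 higher in ICC than in p53LKO HCC, beside 13.4% and 12.9% of all probes. Their median was -1.53, beside -0.19 over all genes. The log2 difference was -2.82 (SE 0.44) for Dgat2, which completes triglyceride synthesis, and -1.85 (SE 0.58) for Fbp1, an enzyme of gluconeogenesis. It was -1.84 (SE 0.24) for Gpd1, which interconverts glycerol phosphate and a glycolytic intermediate, and -1.71 (SE 0.31) for Mgll, which frees glycerol from monoglycerides. The glycerol kinase Gk also fell by 1.14 (SE 0.30). Between the HCC groups, Mgll was higher in p53LKO HCC by 1.33 (SE 0.38) and Pck1, which makes the precursor for glucose and glycerol, fell by 3.03 (SE 0.54), with 10 of 12 not called. This count of 1 higher and 1 lower stands beside 3.64% and 16.0% of all probes. Against p53f/f HCC, 6 of 12 were called lower in ICC and 0 higher, beside 12.0% and 7.43% of all probes, with a median of -1.40 beside -0.16 over all genes. The log2 differences were -2.47 (SE 0.45) for Dgat2, -2.30 (SE 0.55) for Fbp1, -2.30 (SE 0.80) for Pck1 and -2.26 (SE 0.33) for Gpam, which starts glycerolipid synthesis. Aqp9 itself was not called in any of the 3 comparisons.

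The transporters and receptors with which ducts drive secretion moved in both directions. Of 11 tested, 2 were called higher and 4 lower in ICC than in p53LKO HCC, beside 12.9% and 13.4% of all probes. Their median was 0.11, the same with Slc5a1 at its bound, beside -0.19 over all genes. Slc12a2, a chloride importer, rose by 3.23 (SE 0.36) and Ano1, a chloride channel, by 2.03 (SE 0.51). Slc10a2, a bile acid importer, fell by 2.09 (SE 0.36), and Slc5a1, a glucose importer, was at least 5.02-fold lower, a bound because no ICC was well above background and the probe passed the filter through p53LKO HCC alone. Slc5a1 was called higher in p53LKO HCC than in p53f/f HCC (limma, adjusted p = 0.00312), but passed the filter through p53LKO HCC alone (5 and 2 of 5 arrays well above background), so no size is given. Car2, a carbonic anhydrase, fell by 1.21 (SE 0.32) between these groups, and 9 of 11 were not called, with 3.64% of all probes called higher and 16.0% lower. Against p53f/f HCC, ICC had 2 of 10 tested called higher, Slc12a2 by 3.34 (SE 0.38) and Ano1 by 2.04 (SE 0.62), and 2 lower, Slc10a2 by -1.51 (SE 0.33) and Slc4a2, an anion exchanger, by -1.01 (SE 0.32). These counts stand beside 7.43% and 12.0% of all probes, and the median of the 10 was -0.47 beside -0.16 over all genes. All calls of the glycerol and duct genes had limma adjusted p-values under the threshold.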

How the data were processed

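One Agilent mouse array with a single dye was hybridised for each of 15 liver tumors. The authors extracted the scans with Agilent Feature Extraction 10.7.3.1 per the labels, and the deposited files hold a processed signal intensity per spot, after background subtraction. The authors also deposited a table of log2 values, which matched the rebuilt values after centring per probe (correlation over all probes), with the HCC columns centred on HCC and the ICC columns on p53LKO tumors. It was therefore used only as an alternative for the HCC comparison.

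From the log2 intensity of each probe, without outlier-flagged spots, the 75th percentile of all non-control probes on that array was subtracted. Tested were probes that 3 or more arrays of either group showed well above background. In R 4.3.3 with limma 3.58.1, the linear model was fitted on the 10 arrays of each comparison, with Benjamini-Hochberg adjustment over all probes. Single probes also had an exact two-sided permutation test over 252 splits. Python 3.11.15 and matplotlib 3.10.9 served for the figures. A gene was represented by its brightest probe. Where all arrays of a group were below background, a fold is a bound against the lowest signal well above background on each array.

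Named were all members, the rest of the family, up to 4 called genes of largest change in the glycerol and duct lists per comparison, and the 3 genes most like the brightest hepatocyte and duct member. Gk and Epcam were named after their values were seen. The members and lists were chosen with earlier results of these data known. Tumors were grouped by the labels. That 4 mice gave both an HCC and an ICC is from the labels. Deviations from group means of these pairs correlated at -0.14 to 0.07, against -0.26 to 0.28 for other pairs. The fit was tested on simulated data. Arrays have no read depth, and their number and the signal over background limit the precision. The alternatives are given in the closing section. Nothing was left out of the comparisons.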

Additional observations from a re-analysis of the deposited data

Results flagged for a closer look

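One value stood far from the others of its group. Aqp8 in the ICC of mouse 3733 was at 0.53, and the next lowest ICC was at 3.26. Of 24 groups of 5 tumors examined for the 8 members, 1 held such a tumor, and chance gives about 1 in 20. The mean of the hepatocyte markers was also lowest in this tumor, at 4.06, and its part in the Aqp8 level was not tested.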

How the results depend on the processing

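The alternatives were normexp background correction, quantile normalization, scaling to 7 spike-in probes or to the median or 75th percentile of probes above background on all arrays, no filter or a filter on every array, slide, row or mouse as a block, all 15 arrays in 1 model, the mean of the 2 tumors of mouse 3717, the mean over the probes of a gene, no fold limit, the authors' table and leaving out each tumor. Between the HCC groups the count of members called moved from 1 to 0 with normexp, quantile normalization, spike-in scaling, either other filter, the slide block and the mean of mouse 3717, and to 2 with the mean over probes. Leaving out 1 tumor gave 0 to 1. For ICC against p53LKO HCC the count of 3 ran from 2 to 4, and 3 to 4 with 1 tumor left out. For ICC against p53f/f HCC the count of 4 became 2 with normexp and with the filter on every array, and was 4 to 5 with 1 tumor left out. The falls of Aqp8 and Aqp11 by their brighter probes and the rise of Aqp3 against p53LKO HCC were called under every alternative that tested them. Of the members' differences, 694 kept direction and call, 28 lost the call, 7 gained it and 35 turned. The cause was not tested.

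The mouse as a replicate block gave 3 members called in ICC against p53LKO HCC, as estimated correlation and as a fixed term over 4 mice, and changed no count. The mouse block was not fitted for the comparisons with p53f/f HCC, and the row block could not be fitted for ICC against p53f/f HCC.

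Directions turned only for small, uncalled differences. Between the HCC groups Aqp11 became -0.070 with quantile normalization, -0.079 and -0.019 with the 75th percentile and median over probes above background on all arrays, and -0.037 with the mean over probes. Aqp9 became 0.046 (quantile) and 0.51 (spike-in). Aqp7 became -0.15 and -0.088 with those 2 scalings and ran from -0.043 to 0.25 with 1 tumor left out. Spike-in scaling turned Aqp1 to 0.39, the second probe of Aqp11 to 0.50, Aqp3 to 0.20 and the probes of Aqp8 to 0.48 and 0.40. The row block turned Aqp8 to 0.0014. Aqp1 ran from -0.73 to 0.23 with 1 tumor left out, the latter without mouse 3975. In ICC against p53LKO HCC, Aqp7 became 0.049 (normexp), 0.21 and 0.044 (the 2 scalings) and 0.070 (fixed mouse block). Aqp1 became -0.098 (row block) and -0.28 (fixed mouse block) and ran from -0.22 (without mouse 3975) to 0.74 with 1 tumor left out. In ICC against p53f/f HCC, Aqp7 became 0.15 (normexp), 0.061 (75th percentile), 0.69 (spike-in) and 0.083 (slide block). With 1 tumor left out Aqp7 ran from -0.20 to 0.087 and Aqp1 from -0.30 to 0.24.

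Scaling moved the median of all genes. Between the HCC groups it was 0.09, and -0.15 with the 75th percentile of probes above background on all arrays, -0.09 with their median and 0.83 with spike-ins. The split of called probes, 1312 higher and 5774 lower, became 630 and 7942, 771 and 7333, and 9811 and 2313. It was 930 and 1962 with normexp, 1543 and 3720 with quantile normalization, 1002 and 846 with the filter on every array and 3652 and 8213 without a fold limit. For ICC against p53LKO HCC, 4225 and 4390 became 6240 and 2252 (75th percentile) and 5135 and 3016 (median), with all-gene medians of -0.19, 0.18 and 0.02, and 2665 and 2949 with normexp, 1465 and 2866 with the filter on every array and 5870 and 8894 without a fold limit. For ICC against p53f/f HCC, 2652 and 4285 became 7331 and 930 with spike-ins (median -0.16 and 0.59), 3028 and 3208 with the 75th percentile, 14655 and 4477 without a filter, 1898 and 1855 with the filter on every array, 1803 and 1947 with normexp, 1629 and 2072 with the slide block and 4088 and 8058 without a fold limit.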
